A study of Mus musculus with 19 samples.

Results

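Acute phase proteins are plasma proteins whose liver output changes in inflammation, and 10 of their genes are described here: Saa1, Saa2, Saa3, Saa4, Orm1, Orm2, Lcn2, Hp, Hpx and Apcs. Every non-control probe whose RefSeq accession belonged to one of these genes was taken, whatever its values. This gave 10 probes, 1 for each gene, among 55681 probes on the array, whose names covered 20018 genes. All 10 passed the filter on dim probes, as did 29415 probes in all. The liver samples came from 19 male mice, 10 weeks old, all of transgenic mouse strain 40.6, 3 days after exposure to the polycyclic aromatic hydrocarbon dibenz[a,h]anthracene (DB[a,h]A). The 5 controls received 0 mg/kg, and 5, 4 and 5 exposed animals received 6.25, 12.5 and 25 mg/kg. The labels do not say which transgene the strain carries, and the vehicle was not given in the sources used here. On each array the red dye, Cy5, marked RNA from part of 1 liver, and the green dye, Cy3, marked the same commercial reference, RNA of 11 cell lines, with no dye swap. A value is therefore the log2 ratio of liver over reference, where a difference of 1 is a doubling of the ratio.

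In an acute phase response, macrophages and other cells release interleukin 6, interleukin 1 and tumour necrosis factor. These cytokines act on hepatocytes through the transcription factors STAT3, C/EBP and NF-kB. The serum amyloid A proteins are carried on high density lipoprotein, and in mice Saa1 and Saa2 are the strongly inducible liver forms, Saa3 is made in many tissues and Saa4 is the constitutive form. Orm1 and Orm2 encode orosomucoids, which bind drugs and lipids. Lcn2 encodes lipocalin 2, which withholds iron from bacteria by binding their siderophores. Hp encodes haptoglobin, which binds free haemoglobin, and Hpx encodes hemopexin, which binds free haem. Apcs encodes serum amyloid P component, a pentraxin that is a major acute phase protein in mice.

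The start regions of Saa1, Saa2, Saa3 and Lcn2 are shown because Saa1, Saa2 and Lcn2 varied most between animals and Saa3 had the smallest p of a dose comparison. Each runs from 250 bases before the RefSeq start to 50 bases after it in build GRCm38.p6, 5′ to 3′ on the gene's strand, and capitals mark matches on either strand to TTNNGNAA, a core of C/EBP sites. The window of Saa1 is chr7:46742931-46743230, minus strand, that of Saa2 is chr7:46751583-46751882, plus strand, that of Saa3 is chr7:46715627-46715926, minus strand, and that of Lcn2 is chr2:32387690-32387989, minus strand. No match overlapped another in these windows.
Saa1: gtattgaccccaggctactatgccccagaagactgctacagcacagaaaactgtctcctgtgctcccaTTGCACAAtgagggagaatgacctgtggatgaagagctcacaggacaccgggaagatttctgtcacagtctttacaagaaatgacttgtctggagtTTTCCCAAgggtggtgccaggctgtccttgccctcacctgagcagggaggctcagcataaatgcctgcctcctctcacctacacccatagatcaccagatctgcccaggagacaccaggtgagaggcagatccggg
Saa2: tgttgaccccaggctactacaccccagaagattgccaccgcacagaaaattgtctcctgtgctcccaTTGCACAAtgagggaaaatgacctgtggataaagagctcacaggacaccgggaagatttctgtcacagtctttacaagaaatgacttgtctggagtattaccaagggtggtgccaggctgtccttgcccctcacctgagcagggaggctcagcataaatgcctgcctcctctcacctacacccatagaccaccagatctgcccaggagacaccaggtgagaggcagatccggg
Saa3: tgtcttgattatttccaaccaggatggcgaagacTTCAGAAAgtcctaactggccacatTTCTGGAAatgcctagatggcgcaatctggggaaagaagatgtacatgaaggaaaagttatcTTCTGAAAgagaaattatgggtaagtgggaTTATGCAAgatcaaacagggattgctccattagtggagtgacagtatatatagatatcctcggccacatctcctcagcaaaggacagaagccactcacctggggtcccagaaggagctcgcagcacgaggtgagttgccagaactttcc
Lcn2: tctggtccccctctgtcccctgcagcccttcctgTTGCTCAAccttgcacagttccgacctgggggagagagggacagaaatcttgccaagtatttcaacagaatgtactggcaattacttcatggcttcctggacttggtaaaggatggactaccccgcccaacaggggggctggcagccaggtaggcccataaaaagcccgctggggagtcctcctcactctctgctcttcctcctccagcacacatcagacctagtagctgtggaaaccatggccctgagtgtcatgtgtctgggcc

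The Saa1 and Saa2 windows were 95.3% identical, with 12 mismatched bases and 2 gap bases over 301 aligned positions. The Saa1 and Saa3 windows were 54.2% identical. The motif TTGCACAA stood at -182 to -175 from the start in Saa1 and at -183 to -176 in Saa2, and Saa1 held a further match, TTTCCCAA, at -86 to -79. Saa3 held 4 matches and Lcn2 held 1. RefSeq promoters of 8 of the 10 genes were used, and 7 of them held at least 1 match, against 40.7% of 32544 promoters of the same length. A STAT motif (TTCNNNGAA, the same on both strands) was found in Apcs alone of the 8 windows, and in 8.33% of all promoters. The NF-kB motif, sought on both strands, was in none of the 8 windows and in 4.53% of all promoters. A match describes letters in a window and says nothing of binding.

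The liver signal of all 10 probes was above background on all 19 arrays, and none was saturated. Reference signal was above background on 17 arrays for Apcs, on 18 for Saa2 and Saa4, and on 19 for the other members. Over all probes, liver signal was above background at 34.4 to 55.7% per array, and 8 of 8 hepatocyte markers passed the filter. Arrays sat on 3 slides, each of which held every dose, and slide 1 was scanned 7 days after the other slides. Slide 1 held 2 controls and 1 array of each dose, slide 2 held 2 of each, and slide 3 held 1 control, 2 arrays at 6.25, 1 at 12.5 and 2 at 25 mg/kg. Nothing more than the labels' separate samples shows that the animals were handled apart, so p-values measure the spread between these samples. Fewer cells of a type and less RNA per cell cannot be told apart in these bulk samples.

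The comparison of each dose with control asked whether DB[a,h]A changed these genes in liver. None of the 10 genes passed at any dose in limma at an adjusted p under 0.05 (Benjamini-Hochberg over all probes kept). In the fit without the slide, Saa1, Saa2, Saa3, Saa4 and Lcn2 had positive changes at every dose, each largest at 12.5 mg/kg. Saa2 had a log2 change of 0.35 ± 0.77 (SE) at 25 mg/kg, 0.88 ± 0.82 at 12.5 mg/kg and 0.84 ± 0.77 at 6.25 mg/kg. Its interval of 95% confidence at 25 mg/kg ran from -1.28 to 1.97, so changes of 1 in either direction lie inside it. The change of smallest unadjusted p was that of Saa3 at 12.5 mg/kg, 0.51 ± 0.21 (adjusted p = 0.999 in limma), with an unadjusted interval of 95% confidence from 0.068 to 0.95, which excludes 0.

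The count of 0 members stands beside a background that was itself low. Of all probes kept, 0.0578% passed at 25 mg/kg (17 probes), 0% at 12.5 mg/kg and 0% at 6.25 mg/kg. In the F test over doses 0.0102% passed, and in the linear dose trend 0.0204%. In the fit with slide as a block the shares were 0.816% at 25 mg/kg (240 probes), 0.0068% at 12.5 mg/kg and 0% at 6.25 mg/kg, with 0.0748% in the F test and 0.241% in the trend, and again 0 members passed in each. At an unadjusted p under 0.05, 2168 probes (7.37%) and 0 members were found at 25 mg/kg. At 12.5 mg/kg there were 1238 probes (4.21%) and 1 member (Saa3), and at 6.25 mg/kg 1637 probes (5.57%) and 0 members. With the block these were 4281 probes (14.6%) and 0 members, 2792 probes (9.49%) and 1 member, and 3445 probes (11.7%) and 0 members. The F test gave 1493 probes (5.08%) and the trend 1727 (5.87%) at that level, with 0 members in each. With the block they gave 4193 (14.3%) and 3178 (10.8%), again with 0 members in each. In so small a set, a count of 0 or 1 is near these shares.

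**Figure D1:**
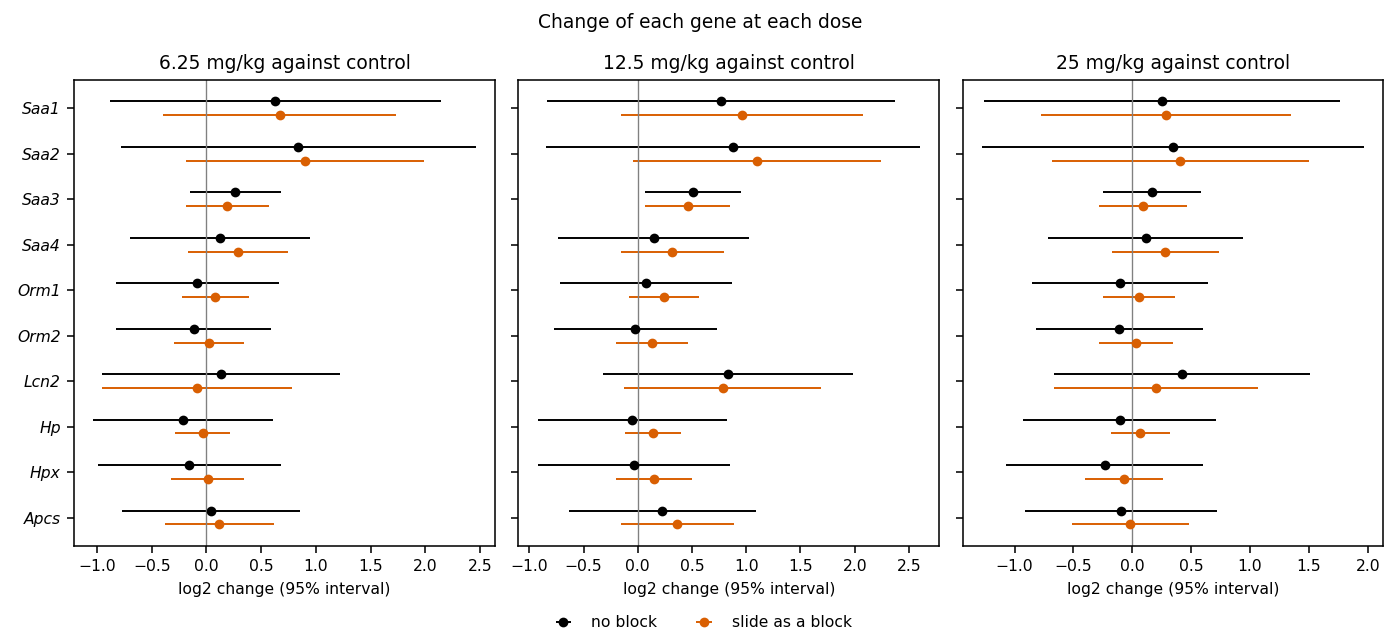
Log2 change of each of the 10 genes at 6.25, 12.5 and 25 mg/kg against control (x axis, log2 units), as points with intervals of 95% confidence, in the fit without the slide (black) and with slide as a block (orange). All intervals but that of Saa3 at 12.5 mg/kg include 0, and those of Saa1, Saa2 and Lcn2 are the widest in the fit with the block.

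The direction of the members as a group was not uniform. At 25 mg/kg 5 of 10 genes were above control, with a median log2 change of 0.0083, against -0.022 over all probes. At 12.5 mg/kg 7 of 10 were above control, with a median of 0.19 against -0.023 over all probes. At 6.25 mg/kg 6 of 10 were above control, with a median of 0.081 against -0.014. In the fit with the slide, 8, 10 and 8 of the 10 genes were above control at 25, 12.5 and 6.25 mg/kg, with medians of 0.080, 0.34 and 0.099, against -0.012, -0.0081 and -0.0041 over all probes. Of all probes, 44.9%, 44% and 46.7% were above control at these doses without the slide. With the slide the shares were 46.8%, 47.5% and 49%. The counts of members moved when single livers were left out, a tally made after the data had been examined. Without 12.5 mg/kg replicate 1 the count at 12.5 mg/kg was 2 of 10, with a median of -0.068, and in the fit with the slide it was 8, with a median of 0.075. At 25 mg/kg the count without the slide was 2 without control replicate 3, 8 without 25 mg/kg replicate 4, and 9 without control replicate 4 or control replicate 5. At 6.25 mg/kg it was 10 without control replicate 4. In the fit with the slide, leaving out control replicate 1 gave 3, 10 and 4 genes above control at 25, 12.5 and 6.25 mg/kg. In no gene did the values of a dose group stand free of the control values, while 1.75%, 1.46% and 0.969% of all probes did so at 25, 12.5 and 6.25 mg/kg. The 3 doses share their control animals, so these counts are not independent of one another.

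Saa1, an inducible serum amyloid A, had log2 ratios of 3.49, 3.94, 2.61, 5.09 and 4.08 in controls and of 5.33, 4.30, 3.54, 3.13 and 6.06 at 6.25 mg/kg. The 12.5 mg/kg livers had 6.97, 2.83, 2.87 and 5.78, and the 25 mg/kg livers had 3.96, 5.25, 3.73, 3.61 and 3.90. The 12.5 mg/kg group held both the highest value of all 19 livers and values near the low end of the controls, and every dose group overlapped the controls. Its change was 0.25 ± 0.72 at 25 mg/kg, 0.77 ± 0.77 at 12.5 mg/kg and 0.63 ± 0.72 at 6.25 mg/kg (adjusted p = 0.959, 0.999 and 0.942 in limma). Without 12.5 mg/kg replicate 1 the change at 12.5 mg/kg was -0.017.

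Saa2, the near copy of Saa1 in its start region, had log2 ratios of 6.86, 7.24, 5.38, 8.70 and 7.57 in controls and of 8.80, 8.02, 7.10, 6.45 and 9.56 at 6.25 mg/kg. The 12.5 mg/kg livers had 10.36, 6.43, 5.93 and 9.39, and the 25 mg/kg livers had 7.40, 8.55, 7.17, 7.01 and 7.34. The same livers were high as for Saa1, namely 12.5 mg/kg replicates 1 and 4 and 6.25 mg/kg replicates 5 and 1. Whether each probe also binds the transcript of the other gene was not tested, so the values of Saa1 and Saa2 may not be separate evidence. The counts over the 10 genes nevertheless hold both. Without 12.5 mg/kg replicate 1 its change at 12.5 mg/kg was 0.10.

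Within slides, the Saa1 difference at 12.5 mg/kg was 1.20 on slide 1, -0.43 on slide 2 and 3.49 on slide 3. For Saa2 it was 1.25, -0.13 and 3.51. Both slide 1 and slide 3 hold a single 12.5 mg/kg liver, and on slide 2, with 2 livers in each group, the difference had the opposite sign. At 6.25 mg/kg the Saa2 difference was 1.42, 0.47 and 1.56 on slides 1, 2 and 3, and with slide as a block it was 0.90 (adjusted p = 0.515). At 25 mg/kg it was -0.79, 0.78 and 1.12, so the slides differed in sign there.

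Lcn2, the siderophore-binding lipocalin, had log2 ratios of -0.33, 0.24, -0.73, -0.39 and -0.71 in controls and of 0.67, -0.18, -0.52, -0.92 and -0.32 at 6.25 mg/kg. The 12.5 mg/kg livers had 3.04, -0.57, -0.49 and -0.18, and the 25 mg/kg livers had -0.01, 0.95, 0.16, -0.49 and -0.43. A single 12.5 mg/kg liver stood far above all others, and the other 3 of that group lay inside the control range. The change at 12.5 mg/kg was 0.83 ± 0.55 (adjusted p = 0.999 in limma), and without that liver it was -0.030. At 25 mg/kg it was 0.42 ± 0.52 (adjusted p = 0.895), and the within-slide differences were 0.12, 0.080 and 0.80 on slides 1, 2 and 3.

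Saa3, the serum amyloid A of many tissues, had log2 ratios of -2.91, -2.54, -2.63, -2.97 and -3.05 in controls and of -2.58, -2.48, -2.36, -2.69 and -2.66 at 6.25 mg/kg. The 12.5 mg/kg livers had -1.45, -2.19, -2.58 and -3.02, and the 25 mg/kg livers had -2.81, -2.67, -2.43, -2.71 and -2.67. Liver signal was below the reference on every array, and 2 of 4 livers at 12.5 mg/kg were above all controls. Its change of 0.51 at 12.5 mg/kg was 0.46 with slide as a block (adjusted p = 0.439 in limma) and 0.22 without replicate 1. Within slides 1, 2 and 3 that difference was -0.0054, 0.20 and 1.45, the largest being on the slide that held replicate 1.

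**Figure D2:**
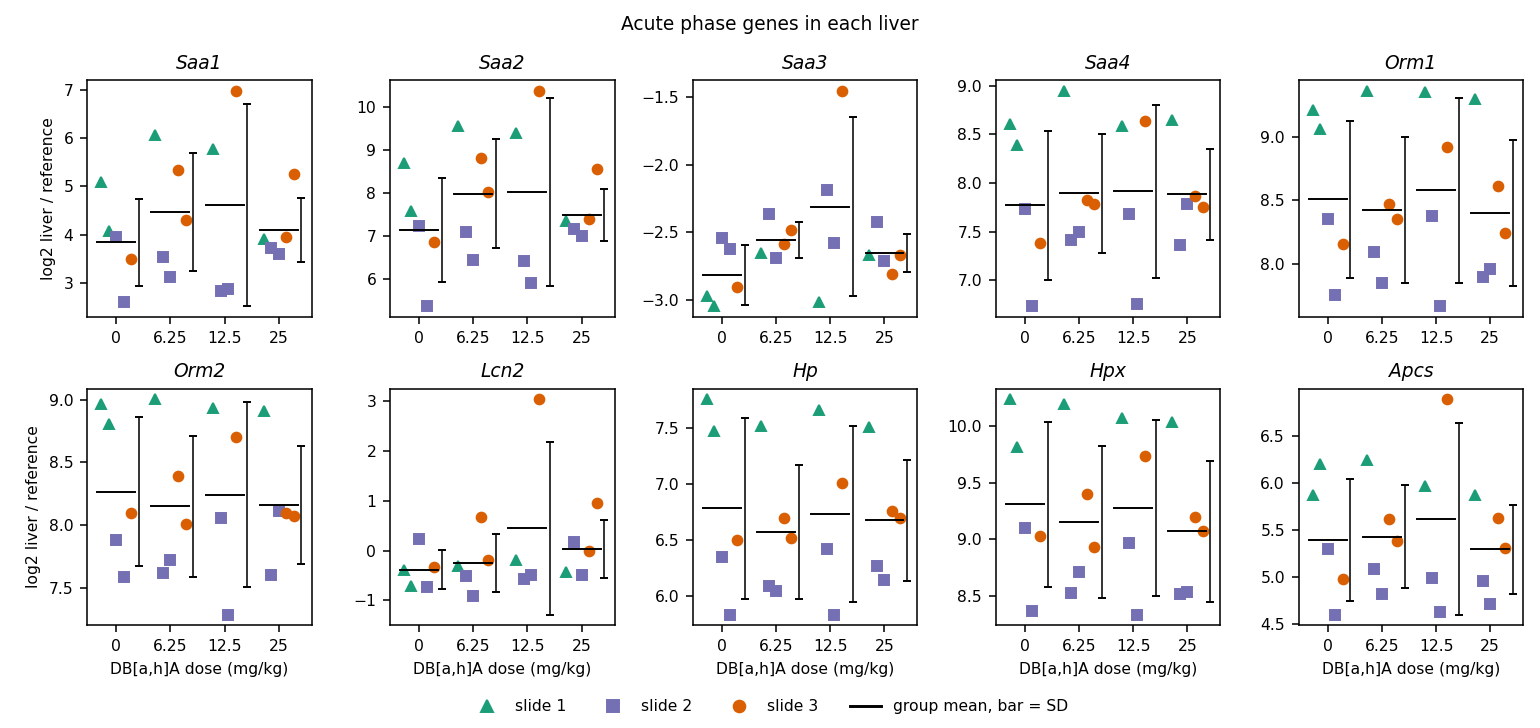
Log2 ratio of liver over reference (y axis) of each of the 10 genes in each of the 19 livers, by dose of DB[a,h]A in mg/kg (x axis), with the slide given by colour and shape, the group mean as a line and the SD as a bar. The mean of slide 1 is the highest for all genes but Saa3 and Lcn2, and 1 liver at 12.5 mg/kg on slide 3 lies far above the rest for Lcn2, at 3.04.

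Saa4, the constitutive serum amyloid A, averaged 7.77 ± 0.76 in controls, 7.89 ± 0.62 with 6.25, 7.91 ± 0.89 with 12.5 and 7.88 ± 0.47 with 25 mg/kg (SD over 5, 5, 4 and 5 livers). Its changes were 0.11, 0.15 and 0.12 at 25, 12.5 and 6.25 mg/kg, and 0.28, 0.32 and 0.29 with slide as a block. None of the 3 passed (lowest adjusted p = 0.597 with the block, at 25 mg/kg, in limma).

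Orm1 averaged 8.51 ± 0.62 in controls, 8.42 ± 0.58 with 6.25, 8.58 ± 0.73 with 12.5 and 8.40 ± 0.57 with 25 mg/kg (SD over 5, 5, 4 and 5 livers). Orm2 averaged 8.27 ± 0.59, 8.15 ± 0.56, 8.24 ± 0.74 and 8.16 ± 0.47 in the same groups. The changes of both orosomucoids lay between -0.12 and 0.07 without the slide. Adding slide as a block put them between 0.0225 and 0.24, all positive, so no direction holds for them.

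No change of the haem and haemoglobin scavengers passed at any dose, and every interval of 95% confidence included 0 in both fits. Hp averaged 6.79 ± 0.81 in controls, 6.57 ± 0.60 with 6.25, 6.73 ± 0.78 with 12.5 and 6.68 ± 0.54 with 25 mg/kg (SD over 5, 5, 4 and 5 livers). Hpx averaged 9.31 ± 0.73, 9.15 ± 0.67, 9.28 ± 0.78 and 9.07 ± 0.62 in the same groups. In the fit with the block the interval of Hp at 25 mg/kg ran from -0.18 to 0.32 around 0.070, the narrowest of the 10 genes. That of Hpx ran from -0.40 to 0.26 around -0.070.

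Apcs, the pentraxin, averaged 5.39 ± 0.65 in controls, 5.43 ± 0.55 with 6.25, 5.62 ± 1.02 with 12.5 and 5.29 ± 0.47 with 25 mg/kg (SD over 5, 5, 4 and 5 livers). Its change at 12.5 mg/kg was 0.23 ± 0.41 (adjusted p = 0.999 in limma), and without replicate 1 it was -0.19. On slides 1, 2 and 3 the difference was -0.069, -0.14 and 1.90.

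A single animal, 12.5 mg/kg replicate 1, had the highest value of the 6 arrays of slide 3 for all 10 genes. Over all probes it was the highest there for 15.8%. Its Lcn2 ratio was 3.04, against -0.33 to 0.95 in the other livers of the slide. Saa1 was 6.97, against 3.49 to 5.33, and Saa2 was 10.36, against 6.86 to 8.80. Apcs was 6.88, against 4.98 to 5.62, and Saa3 was -1.45, against -2.91 to -2.48. The remaining 5 genes were higher by less, from 0.32 for Hp to 0.85 for Saa4 above the median of the slide's other livers. The median of the 10 genes over the slide's other livers was 1.03, against -0.0076 for all probes. This animal was chosen for description after its values were seen.

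**Figure D3:**
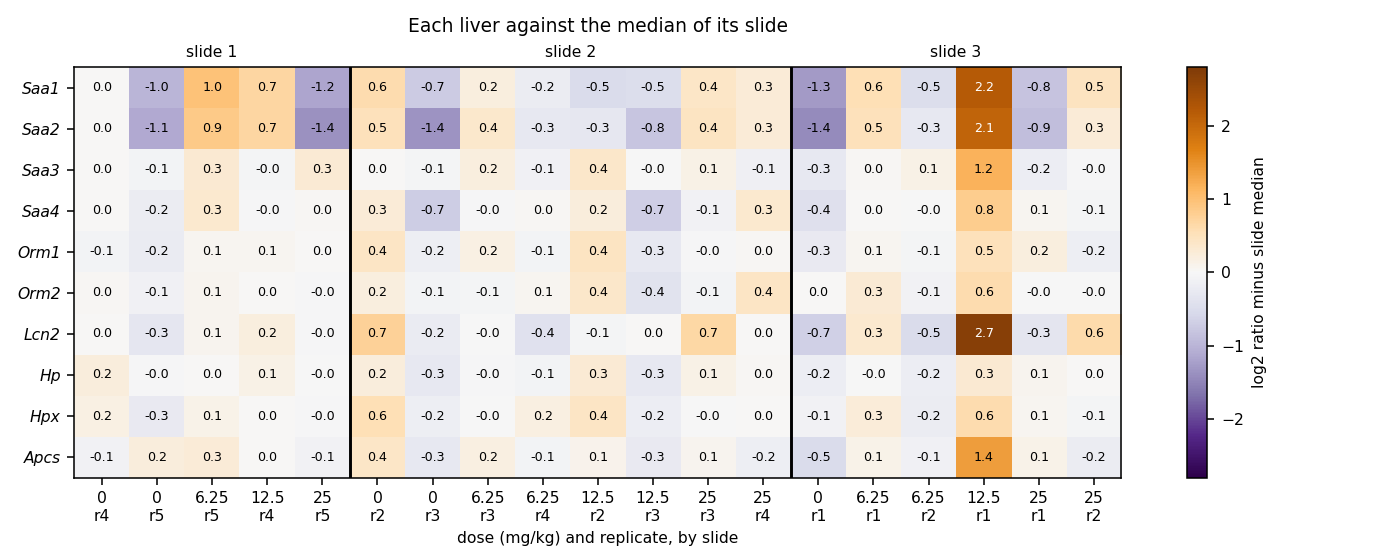
Log2 ratio of each of the 10 genes minus the median of its slide (colour and printed value) in each liver, with livers as columns by slide, dose in mg/kg and replicate (r). The column of 12.5 mg/kg replicate 1 on slide 3 is the highest of its slide in every row, up to 2.7 for Lcn2.

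The liver channel of this animal differed more than the ratio did. Its net liver signal of Saa1 was 533150, against 10211 to 103562 on the other arrays of the slide, and its net reference signal was 6886, against 1380 to 2846. For Saa2 the net reference signal was 428, against 25 to 158. The reference is the same RNA on every array, yet on slide 3 its signal at these probes was highest where the liver signal was highest. The ratio of Saa1 was therefore 6.40-fold the median of the slide's other livers, while the liver channel alone was 22.05-fold, after normalisation. For Saa2 these were 5.08-fold and 19.41-fold, and for Lcn2 8.30-fold and 15.69-fold. For Saa3 they were 2.32-fold and 2.22-fold, with a reference signal of 4924 against 4284 to 4744. The net reference signal of 12.5 mg/kg replicate 1 was the highest of slide 3 for every member, also those whose ratio differed less. Orm1 had 109 against 50 to 80, Hp had 4551 against 2784 to 3506 and Hpx had 546 against 357 to 503. On slide 1, too, the net reference signal of Saa1 and Saa2 was highest where the liver signal was highest, in 6.25 mg/kg replicate 5. There it was 4756 for Saa1 and 173 for Saa2. On slide 2 the net reference signal of both genes was highest in control replicate 2, at 2140 for Saa1 and 63.5 for Saa2. That liver had the highest normalised liver signal and ratio of its slide for both genes. The net liver signal before normalisation was instead highest in 25 mg/kg replicate 3, at 12823 for Saa1 and 7224 for Saa2. The cause of the higher reference signal was not tested. With the liver channel alone, the changes at 12.5 mg/kg were 1.34 for Saa1, 1.57 for Saa2 and 0.99 for Lcn2 (adjusted p = 0.969, 0.960 and 0.938 in limma).

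Other livers stood apart by less. Control replicate 1, the single control of slide 3, was the lowest of its slide for 8 of the 10 genes, and each slide 3 difference is taken against it. On slide 1, 6.25 mg/kg replicate 5 was highest for 7 genes and control replicate 5 lowest for 7. On slide 2, control replicate 2 was highest for 5 genes, and control replicate 3 and 12.5 mg/kg replicate 3 were each lowest for 4. Over the 3 slides and 10 genes, the 14 exposed livers held 23 of the 30 highest places and 11 of the 30 lowest, and the 5 controls held 7 of the 30 highest and 19 of the 30 lowest. Of the 23 highest places of exposed livers, 10 were those of 12.5 mg/kg replicate 1, and these tallies were not tested. Exposed livers outnumber controls, and the places of genes that vary together are not separate. Over all probes, control replicates 1 to 5 were the highest of their slide for 17.4%, 12.9%, 14.7%, 23.6% and 18%. They were the lowest for 20.4%, 10%, 13.3%, 17.1% and 19.2%, in the same order. On slide 1, 6.25 mg/kg replicate 5 was the highest for 25.2% of all probes. On slide 2, 12.5 mg/kg replicate 3 was the lowest for 16.8%.

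Variation between animals of the same dose was large for some members. The residual SD of the log2 ratio was 1.36 for Saa2, 1.27 for Saa1 and 0.91 for Lcn2, against a median of 0.23 over all probes kept. Saa2 stood at the 99.93rd percentile of the probes kept. With the block these were 0.94, 0.92 and 0.75, against a median of 0.16. Saa3 had 0.33 without the block and 0.31 with it, and Hp had 0.68 and 0.19. The spread of some genes was lower without 12.5 mg/kg replicate 1. Without that liver Lcn2 had 0.49, and 0.44 with the block, and Saa3 had 0.22 and 0.17. Apcs had 0.68 and 0.42 with that liver, and 0.58 and 0.24 without it. Saa2 had 1.21 and 0.79 without it, and Saa1 had 1.09 and 0.74, while the median over all probes was 0.23 and 0.16. The slide held 92.1% of the variance of Hp, 85.5% of that of Hpx and 84.1% of that of Orm1, against 22.3% of that of Saa3, with a median of 41.2% over all probes. The dose group held between 0.857% (Saa4) and 26.5% (Saa3), against a median of 12.8%.

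**Figure D4:**
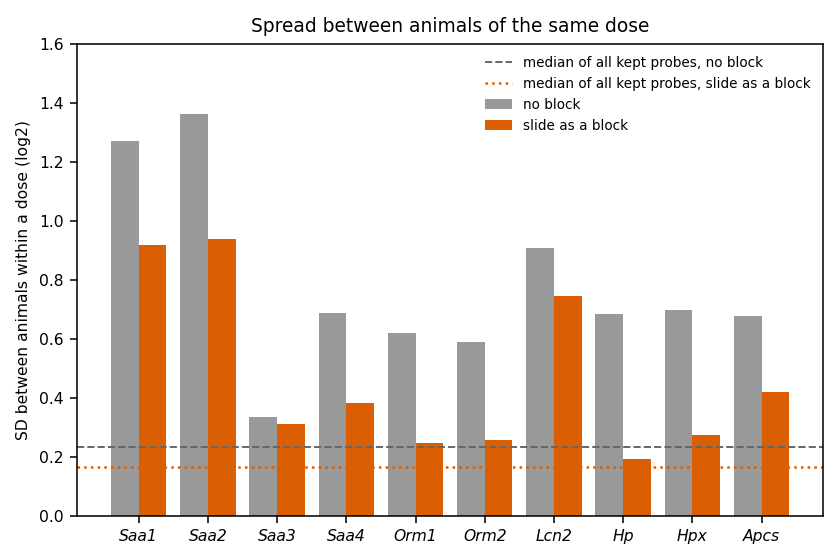
Residual SD of the log2 ratio between animals of the same dose (y axis, log2 units) for each of the 10 genes, without the slide (grey) and with slide as a block (orange), with the medians of all probes kept as lines. Saa1, Saa2 and Lcn2 stay above 0.7 with the block, while Hp is at 0.19, and the Lcn2 bar with the block is 0.44 when 12.5 mg/kg replicate 1, included here, is left out.

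Other genes of the response were taken from lists that do not hold the members. Of 28 other positive acute phase genes 26 passed the filter, and 0 passed the test at any dose without the block. Once slide was a block, 1 rose at 25 mg/kg, Slc39a14, the zinc and iron importer ZIP14 that interleukin 6 induces in hepatocytes. Its log2 change was 0.67 with the block (adjusted p = 0.0318) and 0.63 ± 0.16 without it (adjusted p = 0.197). The medians of this list at 25, 12.5 and 6.25 mg/kg were -0.092, 0.064 and -0.047 without the block. With the block they were 0.0012, 0.17 and 0.0385. Cxcl1, a neutrophil-attracting chemokine, had 0.46 ± 0.44, 1.22 ± 0.46 and 1.36 ± 0.44 at these doses (adjusted p = 0.872, 0.999 and 0.856 in limma). The metallothioneins Mt1 and Mt2, which bind zinc and copper, had 0.41 and 0.29 at 12.5 mg/kg and -0.19 and -0.24 at 25 mg/kg, and neither passed.

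Of 12 negative acute phase and constitutive secreted genes, 0 passed at any dose in either fit. Their median change was -0.22, -0.20 and -0.29 at 25, 12.5 and 6.25 mg/kg without the block, and -0.034, 0.0062 and -0.094 with it. Alb, the gene of albumin, had -0.25 ± 0.37 at 25 mg/kg without the block and -0.050 with it.

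Of 31 cytokine signalling genes 26 passed the filter and 0 passed the test at any dose in either fit. The cytokine genes Il6, Tnf and Lif were above background on 0 arrays. Il1b, the gene of interleukin 1 beta, was above background on 10 arrays and had -0.062 ± 0.10, 0.23 ± 0.11 and 0.16 ± 0.10 at 25, 12.5 and 6.25 mg/kg (adjusted p = 0.923, 0.999 and 0.926 in limma). Il1r1, the receptor of interleukin 1, had 0.81 ± 0.26, 0.71 ± 0.28 and 0.47 ± 0.26 at 25, 12.5 and 6.25 mg/kg (adjusted p = 0.357, 0.999 and 0.916 in limma). Socs3, the feedback inhibitor of STAT3, had -0.046, 0.51 and 0.31 at these doses. Of 10 glucocorticoid response genes 0 passed, and Fkbp5, a co-chaperone of the glucocorticoid receptor, had 0.76 ± 0.22 at 25 mg/kg (adjusted p = 0.266).

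In 12.5 mg/kg replicate 1, 16 of the 26 other positive acute phase genes were the highest of slide 3, with a list median of 0.21 over the slide median. Of the 26 cytokine signalling genes 10 were the highest there, and of the 12 negative acute phase genes 1 was. Over all probes this liver, chosen after its values were seen, was the highest of the slide for 15.8%. The 3 neutrophil markers that passed the filter did not go one way in this liver, where S100a8 and S100a9 were 0.70 and 0.61 above the slide median while Camp was the lowest of the slide, at -0.37, with a mean of 0.31 over the 3. The other 6 neutrophil markers on the array did not pass the filter, among them Retnlg, Cxcr2, Mmp8 and Mmp9 at 0 arrays above background. The mean of the 3 markers minus the slide median ranged from -0.40 to 0.21 in controls, -0.25 to 0.61 at 6.25 mg/kg, -0.13 to 0.31 at 12.5 mg/kg and -0.49 to 0.22 at 25 mg/kg. Their part in the members' values was not tested. Macrophage markers (7 of 8 kept) ranged from -0.63 to 0.90 in controls, -0.16 to 0.14 at 6.25 mg/kg, 0.033 to 0.14 at 12.5 mg/kg and -0.67 to 0.19 at 25 mg/kg. Of the markers that passed the filter, 8 of hepatocytes, 7 of macrophages, 3 of neutrophils, 3 of adipocytes, 2 of mesothelium, 5 of stellate cells and 1 of pancreas, 0 passed the test at any dose in either fit.

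**Figure D5:**
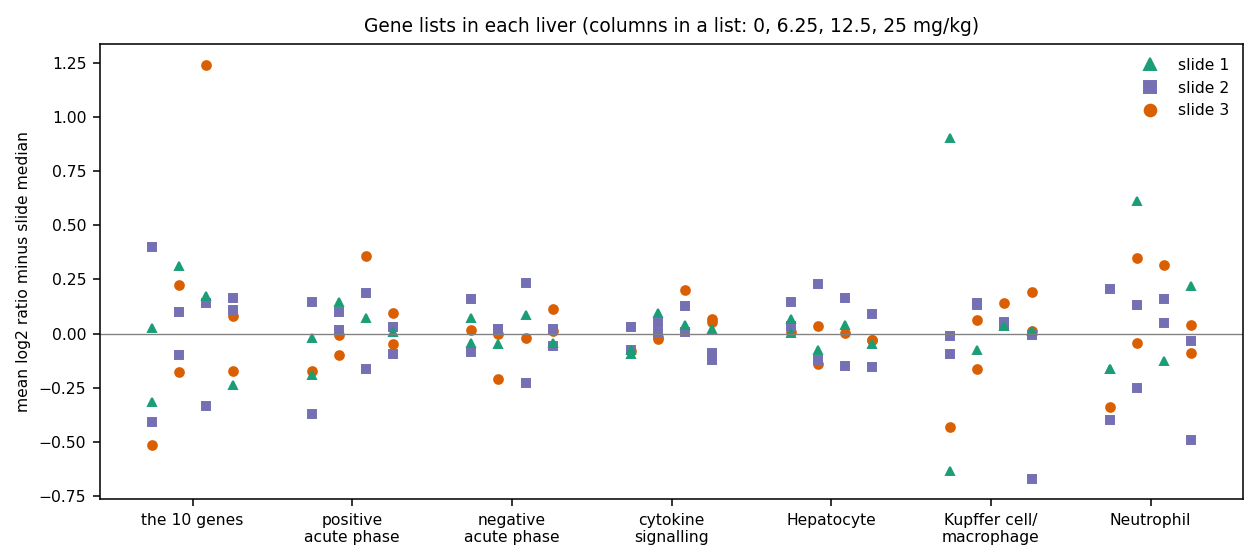
Mean log2 ratio minus the slide median (y axis) of the 10 genes and of 6 other gene lists in each liver, with 4 columns per list for 0, 6.25, 12.5 and 25 mg/kg and the slide given by colour and shape. The highest point of the 10 genes is 12.5 mg/kg replicate 1 on slide 3, and the other lists show smaller departures in that liver.

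The genes whose values ran most like the members over the 19 arrays were sought among 13576 named genes, by the Pearson correlation with the mean of the members' standardised, slide-centred ratios. The highest were Olfr1260, an olfactory receptor (r = 0.92), Fgl1, a fibrinogen-like protein secreted by hepatocytes (0.88), Crybb3, a lens crystallin (0.84), and Prg4, a lubricating proteoglycan (0.84). Next were Prtn3, a serine protease of neutrophil granules (0.83), and Cpb2, a plasma carboxypeptidase that slows clot lysis (0.81). Without the livers farthest from the median, 12.5 mg/kg replicate 1 and control replicate 1, these were 0.82, 0.66, 0.62, 0.78, 0.63 and 0.84 in the same order. The arrays share slides and the reference, and the ranking picks the highest of many genes, so these values describe these arrays and carry no test.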

How the data were processed

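The scanner files hold red and green intensity and local background as median pixel brightness per spot, deposited by the authors. The file headers name the scanner software as Feature Extraction 10.7.3.1. The deposited table holds log2 ratios whose making is not given in the sources used here, and it correlated at 0.993 to 0.996 with a loess log2 ratio without background correction.

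Median signals were corrected with normexp (offset 50) and normalised by loess, with control spots at weight 0, in limma 3.58.1 (R 4.3.3). The offset is above the net reference signal of Saa4 on 18 arrays, of Apcs on 13 and of Saa2 on 10, which compresses their ratios. Spots marked as non-uniform were set to missing (0.131% of those kept), and no member spot was marked. An earlier setting also dropped population outliers (0.696%). It was changed after the data had been seen, to match the share given in an earlier account of these data, and it is among the alternatives. Probes were kept when the liver signal was above background on at least 4 arrays. Names came from RefSeq accessions (GRCm38.p6), which named 47.4% of probes.

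Group means were fitted with lmFit and eBayes over the 19 arrays, with two-sided tests and Benjamini-Hochberg adjustment over 29415 probes. The fit without slide is the main one, and the fit with slide as a block stands beside it. The code was tested on simulated data with independent noise, no slide effect and log2 changes of 1 or 2 at 25 mg/kg alone. Each fit had its own simulated data, with noise set by the residual SD of that fit, so the counts do not compare the fits. The fit without slide made 198 calls on its data, 19 of them false. The fit with the block made 205 on its data, 12 of them false. Those data lack the slide differences of the real arrays. The members, the gene lists and the naming rule (at most 4 genes of smallest F-test p per list, and the 6 genes most like the members) were chosen with earlier results of these data known. Il6, Tnf and Lif, which had no F-test p, and the neutrophil markers were named outside this rule. The number of arrays limits the precision. Alternatives covered background correction, start signal, channel, filter, saturated spots, array weights, samples in the fit, dose as a rank and each array left out. Others were added after the data had been seen.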

Additional observations from a re-analysis of the deposited data

Results flagged for a closer look

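Within each dose group of each gene, a liver was marked when its gap to the nearest other value was a large share of the group's range (Dixon's ratio at 95%). There were 40 group tests on the log2 ratio and 40 on the log2 ratio minus the slide median, with 4 marks on each, and chance marks about 1 in 20 groups. For Lcn2, 12.5 mg/kg replicate 1 was far above its group, at 3.04 as a ratio and 2.71 minus the slide median. For Saa1 and Saa2, 25 mg/kg replicate 2 was the highest of its group as a ratio, at 5.25 and 8.55. Minus the slide median, no liver of that group was marked for either gene. For Saa4, 6.25 mg/kg replicate 5 was the highest, at 8.95 as a ratio and 0.34 minus the slide median. Minus the slide median, Orm1 was highest in control replicate 2 at 0.42 and Orm2 in 25 mg/kg replicate 4 at 0.44. The Saa1 and Saa2 values of 12.5 mg/kg replicate 1 were not marked within their group, which also held replicate 4 at 5.78 and 9.39.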

How the results depend on the processing

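Under 33 other settings, of which 32 applied to each dose and to the dose trend and 31 to the F test, 0 of the 10 genes passed, with a smallest adjusted p of 0.375 in limma (slide as a block without 12.5 mg/kg replicate 1). Of 960 single-gene changes 114 had another sign than in the fit without slide, of which 94 had a change smaller than 0.15 there. No paired analysis was possible because replicate numbers follow accession order and the labels pair no animals. The mean of a gene's probes was not run, since each gene had 1 probe.

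In the fit with slide as a block these were Orm1 0.058, Orm2 0.031 and Hp 0.070 at 25 mg/kg, Orm2 0.13, Hp 0.14 and Hpx 0.15 at 12.5 mg/kg, and Orm1 0.080, Orm2 0.022, Lcn2 -0.088 and Hpx 0.011 at 6.25 mg/kg. With the scanner software's processed signals they were Saa2 -0.14, Saa4 -0.044 and Apcs 0.088 at 25 mg/kg, and Saa4 -0.067, Hp 0.15, Hpx 0.035 and Apcs -0.13 at 12.5 mg/kg. With the deposited table they were Hp 0.034 at 25 mg/kg, and Hp 0.079 and Hpx 0.039 at 12.5 mg/kg. With the liver channel alone they were Orm2 0.022 and Hp 0.081 at 25 mg/kg, Orm2 0.17, Hp 0.31 and Hpx 0.33 at 12.5 mg/kg, and Hp 0.050 at 6.25 mg/kg. With array weights Apcs was 0.014 at 25 mg/kg.

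The other settings that follow were chosen after seeing the data. In the fit with that block without 12.5 mg/kg replicate 1 they were Orm1 0.076, Orm2 0.054, Hp 0.082 and Apcs 0.042 at 25 mg/kg, Hp 0.057, Hpx 0.011 and Apcs -0.026 at 12.5 mg/kg, and Orm1 0.10, Orm2 0.046 and Hpx 0.032 at 6.25 mg/kg. In that fit without control replicate 1 they were Saa1 -0.065, Saa3 -0.0076, Lcn2 -0.13 and Hp 0.0073 at 25 mg/kg, Orm2 0.10, Hp 0.086 and Hpx 0.089 at 12.5 mg/kg, and Lcn2 -0.42 and Apcs -0.10 at 6.25 mg/kg. With the arrays of slides 2 and 3 alone they were Orm1 0.092, Orm2 0.11, Hp 0.24 and Apcs 0.19 at 25 mg/kg, Orm2 0.16, Hp 0.19 and Hpx 0.18 at 12.5 mg/kg, and Orm1 0.10, Orm2 0.082, Hp 0.11 and Hpx 0.061 at 6.25 mg/kg. With population outliers also set to missing no member changed sign, and 17 probes passed at 25 mg/kg as before.

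Leaving out each array in turn, changes of either sign ran at 25 mg/kg from -0.058 to 0.56 for Saa1, -0.10 to 0.73 for Saa2, -0.15 to 0.32 for Saa4, -0.33 to 0.073 for Orm1, -0.30 to 0.066 for Orm2, -0.35 to 0.14 for Hp and -0.29 to 0.10 for Apcs. At 12.5 mg/kg they ran from -0.017 to 1.36 for Saa1, -0.11 to 0.53 for Saa4, -0.19 to 0.38 for Orm1, -0.25 to 0.30 for Orm2, -0.030 to 1.17 for Lcn2, -0.36 to 0.25 for Hp, -0.30 to 0.28 for Hpx and -0.19 to 0.56 for Apcs. At 6.25 mg/kg they ran from -0.14 to 0.33 for Saa4, -0.32 to 0.095 for Orm1, -0.33 to 0.057 for Orm2, -0.10 to 0.30 for Lcn2, -0.45 to 0.033 for Hp, -0.42 to 0.076 for Hpx and -0.16 to 0.24 for Apcs. The cause of these changes of sign was not tested.

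Over all probes, the count passing at 25 mg/kg was 17 without slide, 240 with slide as a block, 320 and 25 with that block and without 12.5 mg/kg replicate 1 or control replicate 1, 136 with array weights, 55 with the liver channel alone, 48 with only the arrays compared, 35 with slides 2 and 3 alone, 10 with no filter and 0 to 67 with an array left out.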
